A study of Drosophila melanogaster with 4 samples.

Results

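The regions described here are the stretches of the *Drosophila melanogaster* X chromosome that the authors called as enriched for histone H3 monomethylated at lysine 4 (H3K4me1). Members were chosen by position alone: a region of the list that the authors called over the pair of replicates (the combined list below) belongs if it lies on the X and ends at or before base 20422827, the limit of the centromeric 2 Mb of the assembled arm (FlyBase release 5). This rule took 1883 of the 1975 X regions and of the 9680 regions in all. Chromatin immunoprecipitation with an antibody against H3K4me1, followed by sequencing (ChIP-seq), was done on formaldehyde-fixed chromatin from nuclei of sieved heads of adult wild-type Oregon-R flies (Oregon-R-modENCODE, stage given as mixed adult) kept in population cages. The study had 2 H3K4me1 ChIP libraries and 2 input libraries, and the labels assign 1 input to each ChIP. No group carried a mutation, transgene or treatment, and the labels do not give the sex of the flies. Heads hold many cell types, so a mark in few cells and a weaker mark in many cells cannot be told apart in these data.

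H3K4me1 is placed in flies mainly by the methyltransferase Trithorax-related and marks enhancers and the sequence flanking active promoters. Males carry the fly X without a homologous partner. Dosage compensation in males works through the MSL complex, which binds active X genes and acetylates histone H4, so X chromatin is often described apart from the autosomes.

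The lists compared were 3 in number: the combined list, the list of ChIP replicate 1 and the list of ChIP replicate 2. The replicate 2 list stood apart on the X, so the main comparisons of the X with the arms are given for each replicate list as well as for the combined list. Depth could not be read from the lists. With 2 replicates of 1 condition, an exact two-sided test over replicates cannot go below p = 0.5, so differences between the X and the arms 2L, 3L and 3R, each also without its centromeric 2 Mb, were described per replicate and not tested. The labels do not say whether the replicates are separate fly collections, and their spread may be technical. The labels pair 1 input with each ChIP replicate by number, so a difference in a ChIP library and one in its input cannot be told apart.

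In the combined list the X was the most densely marked of the 4 arms. Its regions covered 7.89 Mb of 20.4 Mb, or 38.6%, against 27.5% of 2L, 30.8% of 3L and 31.2% of 3R. Most of this lead came from more regions and little from wider ones: the X held 92.2 regions per Mb, against 75.1 on the 3 arms together, a ratio of 1.23, while mean width was 4191 bp on the X and 3988 bp on the arms, a ratio of 1.05.

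The order of the X and the arms was opposite in the 2 replicates. In replicate 1, regions covered 27.1% of the X and 23.3% of the arms, and the X lay above each arm, which ranged from 21.2% on 2L to 24.7% on 3R. In replicate 2, regions covered 14.8% of the X and 21.8% of the arms, and the X lay below each arm, which ranged from 20.0% on 2L to 22.6% on 3R. The X-to-arms ratio was therefore 1.16 in replicate 1 and 0.68 in replicate 2, against 1.29 in the combined list. Over the replicates the X averaged 21.0% ± 8.69 (SD, n = 2) and the arms 22.6% ± 1.10 (SD, n = 2). Each replicate list holds both the X and the arms, and the difference between them changed sign from replicate 1 to replicate 2. The means therefore give no direction for it.

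Regions on the X were both fewer and narrower in replicate 2. Their number was 1452 in replicate 1 and 1268 in replicate 2, while that on the arms was 4251 and 4763. The replicate 2 to replicate 1 ratio of regions per Mb was 0.87 on the X and 1.12 on the arms. The same ratio of mean width was 0.63 on the X, with means of 3811 bp in replicate 1 and 2385 bp in replicate 2, and 0.83 on the arms. Both terms together give the ratio of covered share, 0.55 on the X and between 0.92 and 0.95 on 2L, 3L and 3R.

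**Figure D1:**
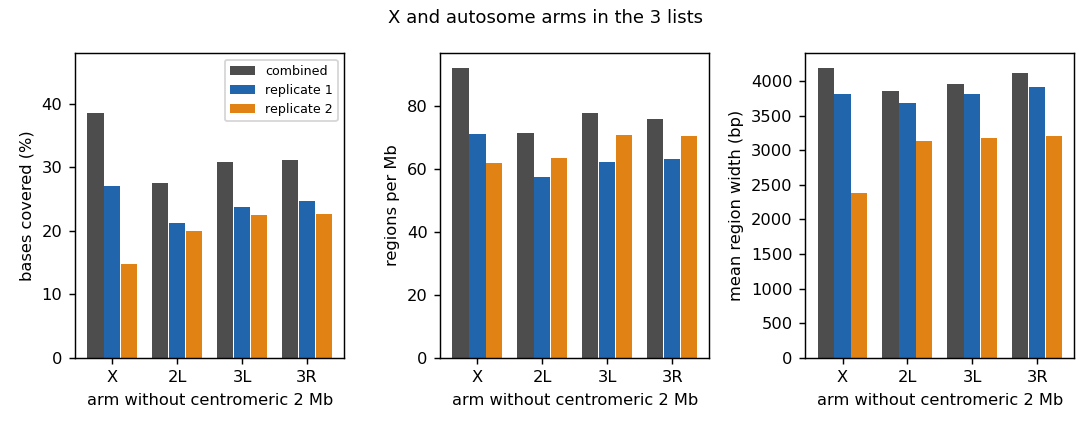
Bars show the covered share in percent, the regions per Mb and the mean region width in bp for the X, 2L, 3L and 3R without their centromeric 2 Mb, in each of the 3 lists. The X has the highest bar of the 4 arms for covered share in the combined list (38.6%) and in replicate 1 (27.1%), and the lowest in replicate 2 (14.8%).

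The width distribution of the X regions resembled that of the arms in replicate 1, and in the combined list except at its upper end. In the combined list the median was 2766 bp on the X and 2697 bp on the arms, and the 90th percentile was 9209 bp on the X and 8402 bp on the arms. Members wider than 10 kb numbered 160, or 8.50% of the X regions, against 6.44% on the arms, and held 29.4% of the X bases in regions, against 23.4% on the arms. The arm 3R came close to the X here. Its 90th percentile was 8709 bp, and 7.68% of its regions were wider than 10 kb and held 27.0% of its bases in regions. In replicate 1 the median was 2838 bp on the X and 2859 bp on the arms, the 90th percentile 7522 bp on the X and 7299 bp on the arms, and 4.13% of the X regions and 4.12% of the arm regions were wider than 10 kb. In replicate 2 the median was 2000 bp on the X and 2346 bp on the arms, and the upper tail was shorter on the X. There the 90th percentile was 3768 bp on the X and 5946 bp on the arms. Regions wider than 10 kb numbered 4 on the X, or 0.32%, and 75 on the arms, or 1.57%. The narrowest member had 1001 bp and the narrowest replicate region on these arms 1301 bp. Members under 1301 bp made up 13.3% of the X list and between 12.6% and 13.3% of the list of each arm.

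Scores, the authors' enrichment value per region on a scale that the headers do not state, had a higher median on the X within every list. The median was 0.67 on the X and 0.55 on the arms in the combined list, 0.82 and 0.71 on the X and the arms in replicate 1, and 1.18 and 1.07 on the X and the arms in replicate 2. Of the X members 71.2% scored above the median of the whole combined list, against 45.0% of the arm regions. The shift was present at the low end too, where the 25th percentile of the combined list was 0.57 on the X and 0.44 on the arms. Among the narrowest of 4 width classes, fixed over the regions of the X and the 3 arms, the median score was 0.57 on the X and 0.43 on the arms. The highest-scoring 10% of the combined list took in 15.1% of the X regions and 8.81% of the arm regions. In replicate 1 these shares were 17.6% and 8.33%. In replicate 2 they were nearly equal, at 9.86% and 9.53%.

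The mark was spread along the whole X in alternating rich and poor stretches. In 204 windows of 100 kb, the combined list covered a median of 37.9% of a window, with the middle 50% of windows between 20.1% and 56.1%. More than 50% of the bases were covered in 66 X windows, or 32.4%, against 16.6% of the 694 windows on the arms. In replicate 1 this held for 12.7% of the X windows and 8.21% of the arm windows, and in replicate 2 for none of the X windows and 37, or 5.33%, of the arm windows. The 5 richest windows were X:1900001-2000000 (90.2%), X:3600001-3700000 (86.4%), X:19500001-19600000 (85.6%), X:13600001-13700000 (85.0%) and X:2500001-2600000 (83.7%). In these windows replicate 1 covered 64.2% to 79.7% and replicate 2 covered 41.5% to 49.5%.

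In the combined list X:6300001-6400000 was the only empty window of the 204 on the X, or 0.490%, against 20 of 694, or 2.88%, on the arms. By arm the share ran from 1.16% on 3R to 5.24% on 2L. In the replicates the shares of empty windows were closer: 6.86% on the X and 7.20% on the arms in replicate 1, and 6.86% on the X and 5.48% on the arms in replicate 2. The next poorest X windows were covered to between 1.68% and 3.41%, at X:14500001-14600000, X:7300001-7400000, X:2900001-3000000 and X:18900001-19000000. The longest runs of neighbouring X windows above 50% spanned 500 kb each, at X:1100001-1600000 and X:1700001-2200000, the second holding the richest window. The longest runs below 10% spanned 300 kb each, at X:2700001-3000000 and X:12000001-12300000. Neighbouring windows were weakly alike, with a Spearman rho of 0.30 on the X and 0.27 averaged over the 3 arms, and at 2 windows apart the values were 0.04 on the X and 0.06 on the arms. These coefficients describe windows of 1 list that share regions at their borders.

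Coverage varied less over larger distances. In segments of 5 Mb from the distal end, with the last running on to the limit, the combined list covered 40.7%, 39.1%, 35.2% and 39.6%. Replicate 1 covered 29.0%, 27.9%, 23.7% and 27.7%, and replicate 2 covered 16.7%, 15.1%, 13.1% and 14.3%. The replicate 2 to replicate 1 ratio in these segments lay between 0.52 and 0.58, so the lower X coverage of replicate 2 was present along the whole arm.

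**Figure D2:**
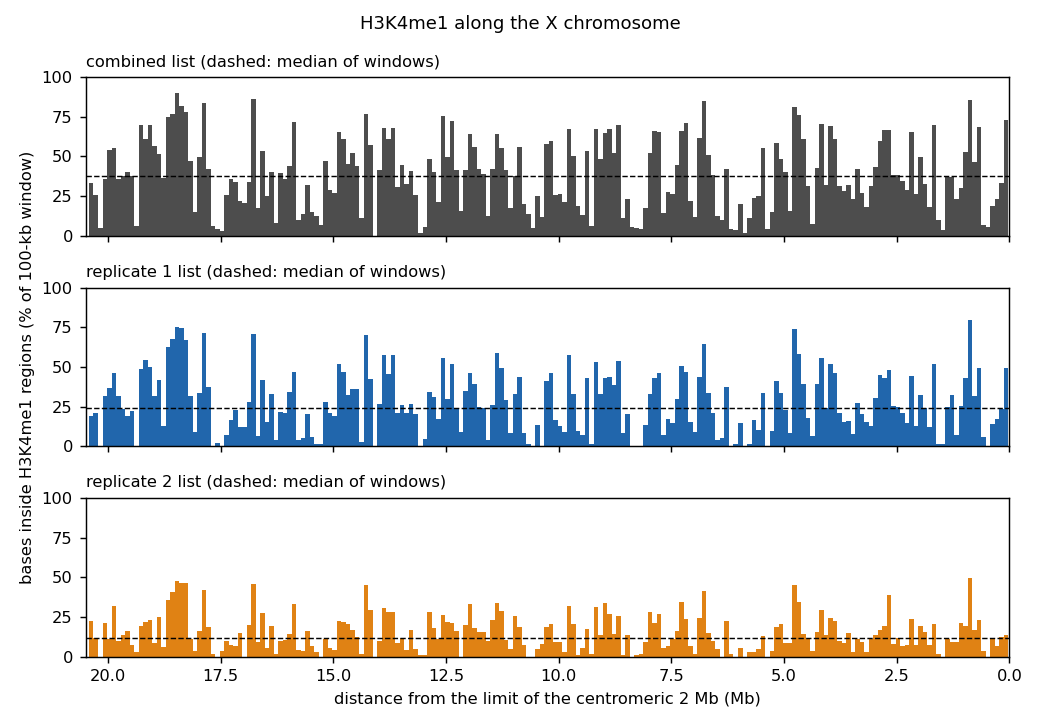
Each bar is the share of bases of a 100-kb window of the X inside an H3K4me1 region, in percent, for the combined list (top), replicate 1 (middle) and replicate 2 (bottom), against the distance in Mb from the limit of the centromeric 2 Mb; dashed lines are medians over the 204 windows (37.9%, 24.4% and 12.0%). Peaks and troughs fall at the same places in the 3 panels, and the bars of replicate 2 are lower along the arm.

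The replicates ranked the X windows much alike despite their different levels. The Spearman rho of covered share between the replicates was 0.91 over the 204 X windows and 0.97 over the 694 arm windows. These are descriptions across windows of libraries from the same strain and tissue, not across independent samples. Replicate 2 was below replicate 1 in 175 X windows, above it in 23 and equal in 6. On the arms it was below in 413, or 59.5%, and above in 257.

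Among the 153 X windows covered to at least 10% in replicate 1, the median replicate 2 to replicate 1 ratio was 0.51, and the middle 50% of windows lay between 0.41 and 0.63. On the arms the median was 0.91 over 487 windows, and the middle 50% lay between 0.81 and 1.02. A ratio under 0.75 was found in 139 of the 153 X windows, or 90.8%, and in 10.3% of the arm windows. The ratio depended little on how rich a window was: on the X the median was 0.50 where replicate 1 covered 10% to 25%, 0.49 from 25% to 50% and 0.58 above 50%. On the arms the corresponding medians were 0.96, 0.90 and 0.88.

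A few X windows departed from this. Replicate 2 covered more than replicate 1 in X:3300001-3400000, with 15.1% against 11.9% in replicate 1, and in X:1-100000, with 22.8% against 19.1% in replicate 1. The neighbouring window X:3400001-3500000 was covered to 12.1% in replicate 1 and had no replicate 2 region. The other lowest ratios were 0.19 at X:14700001-14800000 and 0.21 at X:7000001-7100000.

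**Figure D3:**
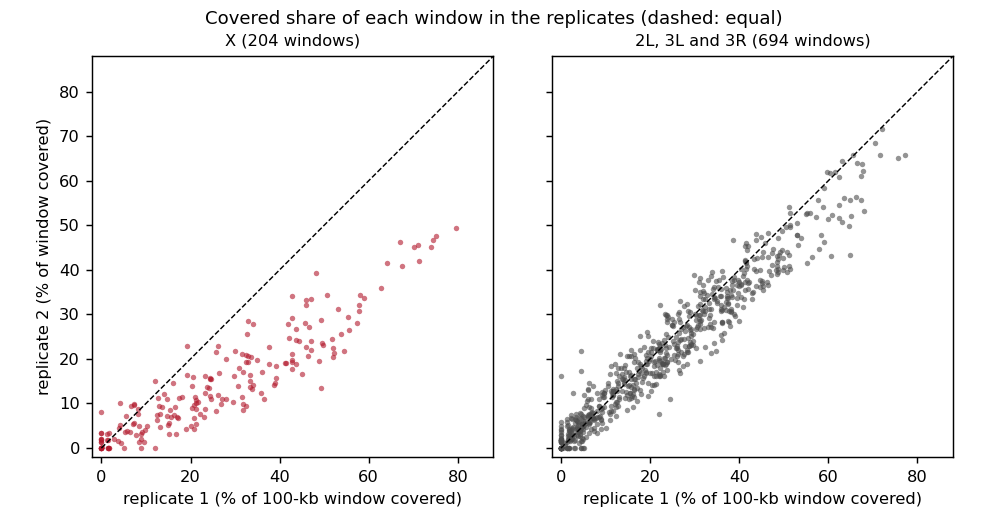
Each point is a 100-kb window, with the percent of its bases covered in replicate 1 on the x axis and in replicate 2 on the y axis, for the 204 windows of the X (left) and the 694 windows of 2L, 3L and 3R (right); the dashed line marks equal shares. Most X points lie below the line (median ratio 0.51), while the arm points lie close to the line (median ratio 0.91).

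Fewer X members were found again in the replicates than members of the list as a whole. Counting an overlap of at least 1 bp, replicate 1 met 1152 of the 1883 X regions, or 61.2% (exact 95% binomial interval 58.9% to 63.4%), against 67.8% of the whole combined list. On the arms the share was 69.8% (68.5% to 71.0%). Replicate 2 met 829, or 44.0% (41.8% to 46.3%), against 64.0% of the whole list and 68.7% (67.4% to 69.9%) on the arms. Both replicates met 710 X regions, or 37.7% (35.5% to 39.9%), against 52.7% of the whole list and 57.0% on the arms. Neither met 612, or 32.5% (30.4% to 34.7%), against 21.0% of the whole list and 18.6% on the arms. These intervals cover counting error over regions only, and the combined list is not independent of the replicates.

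Most X members met by 1 replicate alone were met by replicate 1. Regions met by replicate 1 alone numbered 442, or 23.5% of the X members, against 12.7% on the arms. Regions met by replicate 2 alone numbered 119, or 6.32%, against 11.6% on the arms. In bases, replicate 1 lay on 69.9% of the X sequence inside combined-list regions and replicate 2 on 36.6%, while on the arms these shares were 77.3% and 68.3%. Of the replicate 2 bases on the X, 81.5% lay inside replicate 1 regions, against 80.4% on the arms, whereas 44.5% of the replicate 1 bases on the X lay inside replicate 2 regions, against 74.4% to 75.4% on 2L, 3L and 3R. All 1452 X regions of replicate 1 overlapped the combined list, as did 1218 of the 1268 of replicate 2.

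Lower recovery on the X was seen at like width. In the narrowest of the 4 width classes, up to 1708 bp, replicate 2 met 8.86% of the X regions and 25.7% of the arm regions. This class includes the members under 1301 bp, which are narrower than any replicate region on these arms. In the next class, up to 2722 bp, the shares were 26.7% on the X and 61.9% on the arms. In the third class, up to 4954 bp, they were 50.3% on the X (45.7% to 54.9%) and 87.9% on the arms (86.0% to 89.6%). In the widest class they were 88.3% on the X (85.1% to 91.0%) and 99.5% on the arms (98.9% to 99.8%). Replicate 1 also met fewer X regions in the 3 narrower classes, with 5.49%, 51.7% and 86.6% on the X against 15.9%, 68.6% and 94.9% on the arms, and met 99.8% on the X and 99.9% on the arms in the widest. Averaged over the classes, the X minus the arms was -25.2 percentage points in replicate 2 and -8.95 in replicate 1.

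**Figure D4:**
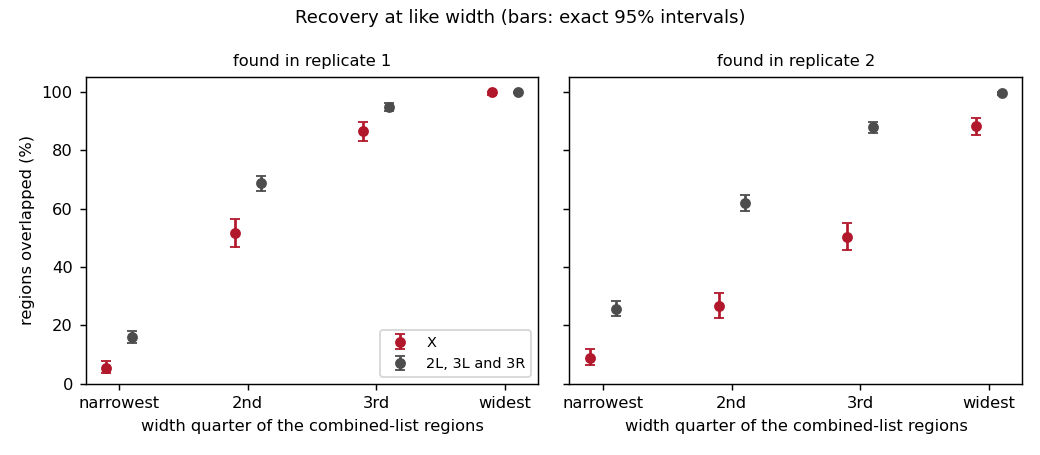
Points give the percent of combined-list regions overlapped by replicate 1 (left) and replicate 2 (right) in 4 width classes from narrowest to widest, for the X and for 2L, 3L and 3R together; bars are exact 95% binomial intervals over regions. The X points lie below the arm points in all 4 classes of replicate 2 and in the 3 narrower classes of replicate 1, and in the widest class of replicate 1 both lie close to 100%.

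Recovery was also lower on the X at like score. In 4 score classes from lowest to highest, the X minus the arms was -25.8, -35.8, -61.4 and -13.8 percentage points in replicate 2 and -16.2, -37.2, -33.2 and -2.30 in replicate 1. Between combined-list scores of 0.60 and 0.80, the class with the widest gap in replicate 2, that replicate met 33.0% of 690 X regions and 94.5% of 1085 arm regions, and replicate 1 met 63.9% on the X and 97.1% on the arms. The X regions in this score class were narrower, with a median of 2588 bp, against 4186 bp on the arms. They were narrower in the other score classes too, with medians of 1613, 1782 and 6101 bp on the X, against 1682, 2204 and 6620 bp on the arms. Regions of like score were thus not of like width.

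Members met by neither replicate were narrow and lay farther from other members than those met by both. Their median width was 1452 bp on the X, against 1283 bp on the arms, and those met by both had 5901 bp on the X, against 4424 bp on the arms. Their median score in the combined list was 0.57 on the X and 0.45 on the arms. No replicate region on these arms was under 1301 bp, so a narrower member could be met only by a region wider than itself. The median distance to the nearest other member was 1412 bp for X regions met by neither replicate and 432 bp for X regions met by both. On the arms these distances were 1925 and 684 bp. Regions met by replicate 2 alone were about as far from other members on the X, with a median of 1481 bp, against 1378 bp on the arms.

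Where a member was matched by exactly 1 replicate region that met no other member, the replicate region was usually the narrower one. Replicate 1 regions had a median of 86.5% of the combined width over 912 X members, against 91.8% on the arms. Replicate 2 regions had 57.8% over 556 X members, against 85.8% on the arms. The loss was about equal at both ends: on the X the replicate 2 region began a median of 568 bp inside the combined region and ended 526 bp inside it, whereas on the arms these insets were 128 and 130 bp. In 381 X members matched one to one in both replicates, the median width was 3286 bp in replicate 1 and 2003 bp in replicate 2, and the median of the ratio was 0.72, against 0.94 over 1822 arm members.

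The loss was not confined to the edges of X regions. Over 481 X members of at least 5 kb, replicate 2 covered 50.9% of the bases in the central 20% of the region and 25.7% in the outermost 10% at each end, a ratio of edge to middle of 0.51. Over 1271 arm regions of that size, the shares were 85.6% and 57.5%, a ratio of 0.67. These averages include regions that replicate 2 did not meet at all. In the widest width class, above 4954 bp, it met 88.3% of the X regions and 99.5% of the arm regions. Replicate 1 covered 89.6% of the centre and 62.5% of the ends on the X, and 95.4% and 70.4% on the arms, with ratios of 0.70 on the X and 0.74 on the arms. The 160 X members wider than 10 kb were all met by replicate 1 and 158 of them by replicate 2. However, 78 of the 160, or 48.8%, had at least 50% of their bases in replicate 2 regions, against 96.4% of 336 such regions on the arms.

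**Figure D5:**
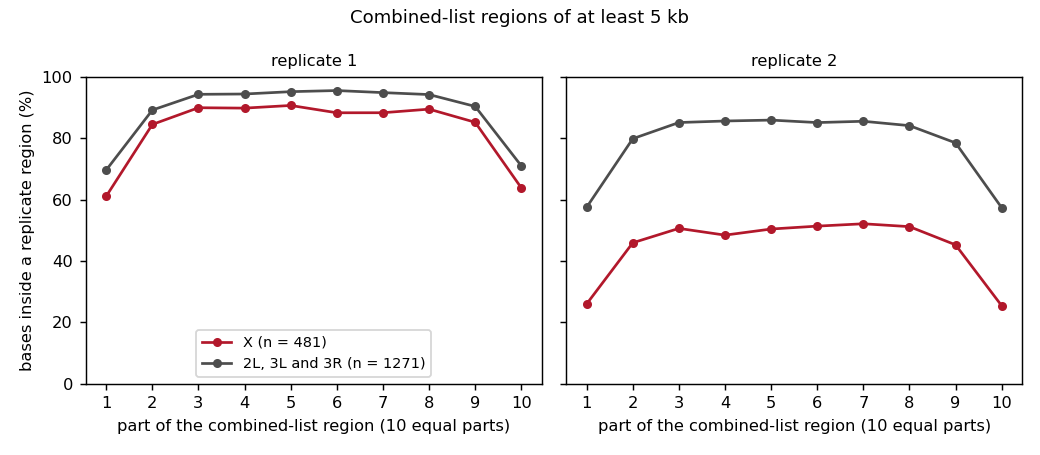
Lines give the percent of bases inside a replicate 1 region (left) or a replicate 2 region (right) in each of 10 equal parts of combined-list regions of at least 5 kb, averaged over 481 regions of the X and 1271 of 2L, 3L and 3R. Regions that the replicate did not meet are included. All 4 curves are lower at both ends; in replicate 2 the X curve lies near 50.9% in the middle, against 85.6% on the arms.

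X regions lay closer together than arm regions in the combined list. The median gap between neighbouring members was 1856 bp on the X and 2859 bp on the arms, where 2L, 3L and 3R ranged from 2810 to 2912 bp. Gaps of up to 500 bp made up 22.9% on the X and 20.0% on the arms. Gaps of at least 30 kb numbered 92 and took up 24.1% of the X, against 34.3% of the arms. Replicate 1 also had closer spacing on the X by median gap, with 2134 bp on the X and 3062 bp on the arms; short gaps made up 19.8% on the X and 19.4% on the arms, and long gaps took up 43.7% of the X and 47.5% of the arms. Of these 3 measures, only the median gap set the X well apart from each arm in replicate 1. Short gaps made up 19.5% on 2L and 19.6% on 3R, and long gaps took up 44.4% of 3R. In replicate 2 all 3 measures showed wider spacing on the X than on each arm, but 2L came close in long gaps. There the median gap was 4092 bp on the X and 3062 bp on the arms, and short gaps made up 11.2% on the X and 16.4% on the arms. Long gaps took up 52.9% of the X, 43.9% of the arms together and 49.6% of 2L. On the arms the replicates thus gave nearly the same median gap, and on the X that of replicate 2 was 1.92 times as long.

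The 3 longest gaps between members were X:6268300-6415856 (148 kb), X:246155-364128 (118 kb) and X:14267605-14369408 (102 kb). The first held no region of either replicate, the second met 2 replicate 2 regions, 1 of them reaching over its end, and the third met 1 replicate 1 region that reached over its end. Single replicates had longer empty stretches, in which the combined list held narrow regions. The longest in replicate 1, X:11922489-12353822 (431 kb), held 12 combined-list regions covering 3.99% of it and 2 regions of replicate 2. The longest in replicate 2, X:9675748-9963347 (288 kb), held 20 combined-list regions covering 12.3% of it and 2 of replicate 1. These 2 stretches were chosen after their values were seen.

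Joining members across gaps of up to 500 bp gave 1452 X domains, of which 1146 were single regions and the largest held 6. Domains wider than 10 kb numbered 222, or 10.9 per Mb, against 7.64 per Mb on the arms, and held 48.1% of the X bases in domains, against 40.5% on the arms. In replicate 1 such domains numbered 117 on the X, or 5.73 per Mb, against 5.08 per Mb on the arms together and 5.56 per Mb on 3R. In that list they held 31.1% of the X bases in domains, against 31.5% on the arms and 32.8% on 3R. In replicate 2 there were 11 on the X, or 0.54 per Mb, against 2.81 per Mb on the arms. None of the 1126 X domains of replicate 2 exceeded 20 kb, whereas 16 of 3982 arm domains did. In replicate 1 this held for 11 of 1165 X domains and 40 of 3429 arm domains, which are similar shares.

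The broadest X domains were found in both replicates and broken into more and smaller pieces in replicate 2. The widest, X:15590217-15654118, spanned 63.9 kb and joined 6 members. Replicate 1 held 9 regions there, the widest of 14.4 kb, and replicate 2 held 16, the widest of 4.25 kb. The next was X:8969783-9017886 (48.1 kb, 4 members), of which replicate 1 covered 87.6% in 8 regions and replicate 2 covered 67.1% in 10. X:1748317-1793686 (45.4 kb) was covered to 90.0% in 6 replicate 1 regions and to 53.6% in 9 replicate 2 regions. The last 2, X:364129-405744 (41.6 kb) and X:1988319-2029855 (41.5 kb), were covered to 81.9% and 83.5% in replicate 1 and to 50.1% and 63.5% in replicate 2. In each of these 5 domains replicate 2 had more pieces and covered less. More pieces in replicate 2 were found on the arms too: members wider than 10 kb met a mean of 2.11 regions in replicate 1 and 2.69 in replicate 2 on the X, and 1.84 and 2.53 on the arms.

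The 5 widest single members were X:2531750-2564574 (32.8 kb), X:8969783-9000661 (30.9 kb), X:1988319-2017432 (29.1 kb), X:2176118-2203678 (27.6 kb) and X:370613-398167 (27.6 kb). Their combined-list scores lay between 0.98 and 1.36. Replicate 1 covered 77.2% to 97.4% of them and replicate 2 covered 42.4% to 69.4%. The fourth, with the highest score of the 5, was the one best covered in replicate 1, where it was called as 2 regions, and it was called as 4 in replicate 2.

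Wider X members had higher scores in general, with a Spearman rho of 0.70 across the 1883 members as a description and a median width of 6101 bp in the highest of the 4 score classes, but 4 of the 5 highest scores belonged to regions close to 1 kb wide. The first was X:897429-898446, 1018 bp wide with a score of 3.61, which replicate 2 overlapped and replicate 1 did not. The next 3, X:18648373-18649380 (3.41), X:10990084-10991084 (3.19) and X:15315906-15316906 (1.98), were 1001 to 1008 bp wide and met neither replicate. No replicate region on these arms was that narrow. The fifth, X:1867960-1872473, was 4514 bp wide, scored 1.54 and was 1 region in each replicate. The number of reads behind these scores is unknown. Among members met by replicate 1 alone, the highest scores were 1.17 at X:5893604-5897294, 1.11 at X:5471889-5474783, 1.09 at X:3954046-3957551, 1.08 at X:7998621-8009586 and 1.07 at X:5227891-5233606. The fourth of these is 10966 bp wide and was covered to 84.5% in replicate 1, without a single replicate 2 base. Members met by neither replicate continued below the 3 already named with X:1893088-1894275 (1.26) and X:5621095-5622288 (1.11), both under 1.20 kb wide.

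No region crossed the limit at base 20422827. The last member inside it was X:20406766-20408634, 1869 bp wide with a score of 0.62, and the first region outside was X:20428920-20429920, 1001 bp wide with a score of 0.69. Neither overlapped a replicate region.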

How the data were processed

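The submitters' processing notes name Bowtie 0.12.7; how regions were called and filtered is not given in the sources used here. The deposited lists give 1-based region starts and ends on FlyBase release 5, per the file headers, and a score for each region set by the authors, used here only within its own list. Regions were called by the authors for each ChIP replicate and for the replicate set. The labels pair 1 input with each ChIP replicate by number. Covered shares, widths, gaps, joined domains (up to 500 bp), 100-kb windows (partial windows left out) and overlaps (at least 1 bp) were computed with Python 3.11.15, pandas 2.3.3 and SciPy 1.17.1, and the functions were checked on simulated data. Intervals are exact Clopper-Pearson 95% intervals. The depth of each library is unknown. Shares were taken over full arm length, without regard to how mappable the bases are. The members, measures and rules were chosen with earlier results of these data known. Named regions were, on the X, the 5 widest and 5 highest-scoring members, the 5 highest-scoring met by replicate 1 alone and by neither, the 5 widest domains, the 3 longest gaps, and the extreme windows by coverage (5 each) and by ratio (3 each). Alternatives covered score, overlap, joining distance, window size, arm limits, comparison arms and each replicate list alone. No gene is named and no sequence printed, because the gene table used here is of release 6 and coordinates were not converted; the tissue label was therefore not checked against marker genes.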

Additional observations from a re-analysis of the deposited data

How the results depend on the processing

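Of 58 alternatives, 24 stayed within the replicate spread, the interval or 1.5 times the count. Any change counted as a move for the 2 replicate ratios, the rank correlation and the matched recovery. For the X-to-arms ratio of covered share, 1.29 in the combined list, the spread was wide because the replicates went in opposite directions. Values of 1.57 with the higher-scoring 50% of each list, 1.26 with whole arms and 1.23 with regions per Mb therefore counted as within it. The list of each replicate in place of the combined list gave an X covered share of 14.8% to 27.1%, an X-to-arms ratio of 0.68 to 1.16, which changes direction with the replicate 2 list, a median width of 2000 to 2838 bp, a median gap of 2134 to 4092 bp, 11.2% to 19.8% short gaps and 11 to 117 domains wider than 10 kb. With the higher-scoring 50% of each list, the replicate 2 to replicate 1 ratio on the X was 0.46, that ratio relative to the arms 0.50, the median width 3768 bp and the window rho 0.88; with whole arms the ratios were 0.54 and 0.58, and with regions per Mb 0.87 and 0.78. The relative ratio was 0.59 without 2L, 0.59 without 3L and 0.58 without 3R. X regions met by replicate 1, replicate 2 and neither were 56.3%, 26.9% and 37.3% when at least 50% of the region had to be covered, 50.7%, 19.0% and 43.2% at 50% reciprocal overlap, and 76.5%, 55.1% and 19.5% in the higher-scoring 50% of the combined list. Windows of 50 and 200 kb were less covered in replicate 2 in 76.5% and 95.1%, with a rho of 0.90 and 0.92. The matched recovery difference was -34.2 percentage points in score classes and -36.2 when at least 50% of the region had to be covered. The replicate 2 to replicate 1 ratio of the X stayed below that of the arms in all of its settings. The cause of these moves was not tested. No paired analysis was possible because ChIP and input are not compared and the lists come from 2 replicates of 1 condition. Unknown depth limits every recovery share.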
